A study of Mus musculus with 2 samples.

Results

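This account covers 33 interferon-stimulated genes of mouse macrophages that encode antiviral sensors, effectors, oligoadenylate synthetases and STAT-linked regulators. The members were chosen by gene symbol, and their values come from array probes carrying the current or an older symbol. Of the 33 genes, 32 had at least 1 probe well above background on both arrays, among 12406 genes measured that way in all. The remaining gene, Ifi205, had no probe under its own name. The cells were bone marrow-derived macrophages, grown from marrow for 5 days in M-CSF (macrophage colony-stimulating factor, supplied as CMG14-12 culture medium) and then given 100 ng/ml of the bacterial product lipopolysaccharide (LPS) for 5 h. One group was labelled c-Maf+/- and kept 1 copy of the transcription factor gene Maf, and the other was labelled c-Maf-/-. There was 1 one-colour array per genotype, and no wild-type, unstimulated or replicate array was used here. All differences are therefore between these 2 arrays, with no test of the genotypes. The labels do not give the deleted part of Maf, the number, age or strain of the mice, or whether the marrow was pooled.

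Macrophages that sense LPS through Toll-like receptor 4 make interferon beta, which binds its receptor on the same and neighbouring cells. The receptor's kinases phosphorylate STAT factors, among them STAT2, which binds IRF9. A complex that holds both binds the interferon-stimulated response element (ISRE) and switches on antiviral genes. Their products sense viral nucleic acid, block translation, degrade RNA or restrain budding, while others end the response.

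The ISRE is shown because it is the sequence through which this gene class is known to respond. It was searched, as GAAA, any 2 bases and GAAA again, on both strands in RefSeq windows (build GRCm38.p6) from 250 bases before to 50 bases after each gene's start. Overlapping matches were counted separately. Windows were found for 25 of the 33 members. Only members with a match upstream of the start were eligible, so Ifit2, Cmpk2 and Ifi44, which had none in their windows, are not shown. Stretches upstream of the start follow for members with large differences (Ifit1, Ifit3 and Rsad2) and with small ones (Isg15, Bst2, Stat2, Oas1a and Oas1g). Each is written 5′ to 3′ on the gene's strand, with the matched letters in capitals.
Ifit1, chr19:34640760-34640838, plus strand: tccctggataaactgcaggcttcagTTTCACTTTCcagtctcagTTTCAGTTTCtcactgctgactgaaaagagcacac
Ifit3, chr19:34583348-34583441, plus strand: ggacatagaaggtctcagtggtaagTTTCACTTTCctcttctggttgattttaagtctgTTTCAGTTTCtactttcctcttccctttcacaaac
Rsad2, chr12:26456538-26456597, minus strand: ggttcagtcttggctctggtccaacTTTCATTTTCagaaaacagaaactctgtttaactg
Isg15, chr4:156200850-156200921, minus strand: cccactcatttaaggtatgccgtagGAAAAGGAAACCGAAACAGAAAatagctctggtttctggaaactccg
Bst2, chr8:71537562-71537627, minus strand: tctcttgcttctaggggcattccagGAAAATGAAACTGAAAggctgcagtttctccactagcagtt
Stat2, chr10:128270251-128270310, plus strand: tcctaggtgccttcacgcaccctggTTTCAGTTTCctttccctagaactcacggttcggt
Oas1a, chr5:120907526-120907570, minus strand: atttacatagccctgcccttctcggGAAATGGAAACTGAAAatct
Oas1g, chr5:120887614-120887656, minus strand: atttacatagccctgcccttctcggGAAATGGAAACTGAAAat

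The 2 arrays lay on 1 slide and carried 59305 non-control spots each. Between 44.9% and 45.3% of these were well above background, and none was saturated. Maf itself went with the labels: the signals of its 2 probes, 15101 and 541 in c-Maf+/-, were not well above background in c-Maf-/-. All 9 macrophage markers were well above background on both arrays, and their signals summed to 423929 (c-Maf+/-) and 449400 (c-Maf-/-). Single markers went both ways, with 6 of 9 lower in c-Maf-/-, from Mertk (271 to 73.5, a log2 difference of -1.91) to Lyz2 (60919 to 92590, 0.58). Neutrophil markers were also detected, 8 of 8, and their sum went from 100819 to 55816. Most of that sum was S100a9 (68498 and 34671) and S100a8 (24689 and 16299). The log2 differences of the 8 ran from -1.45 (Ngp) to -0.03 (Elane, 1855 and 1844), with a median of -0.82. Plasmacytoid dendritic cell markers were detected for 6 of 7 genes, with sums of 83408 and 71281, and Klk1 was not above background. Siglech (41554 and 43949, at 1 of its 3 probes) and Irf8 (32988 and 21434) made up most of these sums. The log2 differences of the 6 ran from -0.71 (Tcf4) to 1.28 (Ly6d, 62.6 and 155), with 4 below 0 and 2 above. Conventional dendritic cell markers (5 of 7 detected, sums of 2784 and 2477) and lymphocyte markers (3 of 5, sums of 2572 and 2004) had lower sums. Xcr1, Cd209a, Ms4a1 and Ncr1 were not above background. Most of the lymphocyte sum was Lck (1530 and 810, a log2 difference of -0.94) and Cd3e (959 and 1115, 0.19), with Cd79a at -0.33. Most of the conventional dendritic cell sum was Ccr7 (2096 and 2058), and the median log2 difference of the 5 was -0.60, with Itgax at -1.09 (275 and 131) and Batf3 at -0.89. Whether these markers came from other cells or from the macrophages was not tested, nor was the part of any other cells in the results below. In such bulk samples, fewer cells of a type and less RNA per cell cannot be told apart.

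All 32 measured antiviral genes had less signal in c-Maf-/- than in c-Maf+/- macrophages, by between 5.08% (Bst2) and 50.5% (Ifit2), although 3 of them did not with spike-in scaling. Here 53.7% of all genes measured on both arrays had a log2 difference below 0. The median log2 difference of the members was -0.31, or 19.3% less signal, against -0.02 over all genes and -0.06 over the 2349 genes with a mean signal of at least 5000. Among those bright genes 65.5% were below 0, 1.19% were at least 2-fold lower and 17.7% were at or below the members' median, against 16.9% of all genes. One member, Ifit2, was at least 2-fold lower, and none was 2-fold higher, while 1.73% of all genes were at least 2-fold lower and 1.43% at least 2-fold higher. The 2-fold count of the members is thus near the background. The direction was shared while the sizes were small. Of the members, 11 lay at a log2 difference of -0.5 or below, where 8.83% of all genes lay. A further 16 lay between -0.5 and -0.2 and the last 5 closer to 0.

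All 49 usable probes of the 32 members had less signal in c-Maf-/-. For the 18 members with 1 usable probe, that probe is the gene value already counted above. All probes were read on the same 2 arrays. Across 14 members with at least 2 usable probes, the SD between a gene's probes was at most 0.23 (Xaf1), with a median of 0.06. Over all genes with at least 2 probes that SD had a median of 0.09 and a 95th percentile of 0.48. The median SD over repeat spots of 1 probe was 0.07. Neither spread takes in cultures or mice. Scaling on the 8 spike-in transcripts moved every difference upward by 0.14, which put Isg15 (0.02), Bst2 (0.06) and Oasl1 (0.01) above 0. The median of all genes moved by the same amount, to 0.11, so the place of a gene relative to that median is the same under both scalings. Values below are with scaling on the 75th percentile.

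**Figure D1:**
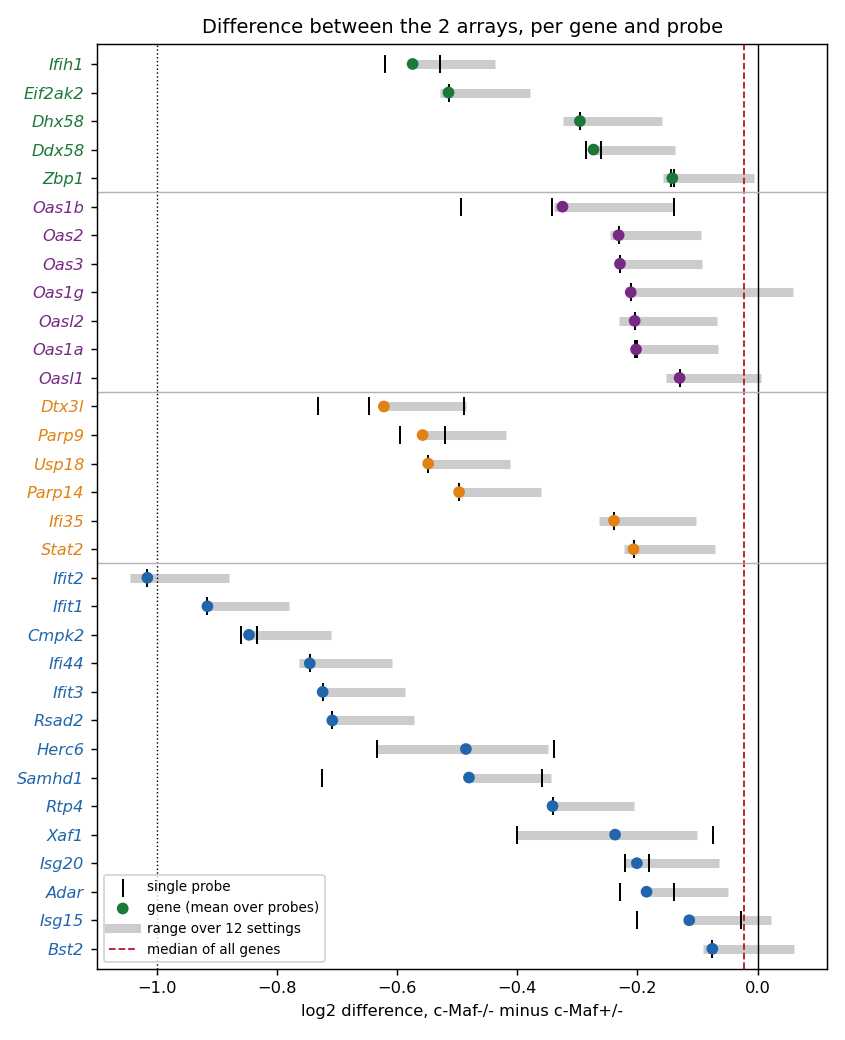
Log2 difference in signal, c-Maf-/- minus c-Maf+/-, for 32 antiviral genes (1 array per genotype). Ticks are single probes, dots are gene means, grey bars span up to 12 processing settings, the dotted line marks 2-fold and the dashed line the median of all genes (-0.02). All dots lie below 0, from Ifit2 (-1.02) to Bst2 (-0.08). The bars of Isg15, Bst2 and Oasl1 reach above 0 with spike-in scaling, and that of Oas1g does so without the filter on dim probes.

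**Figure D2:**
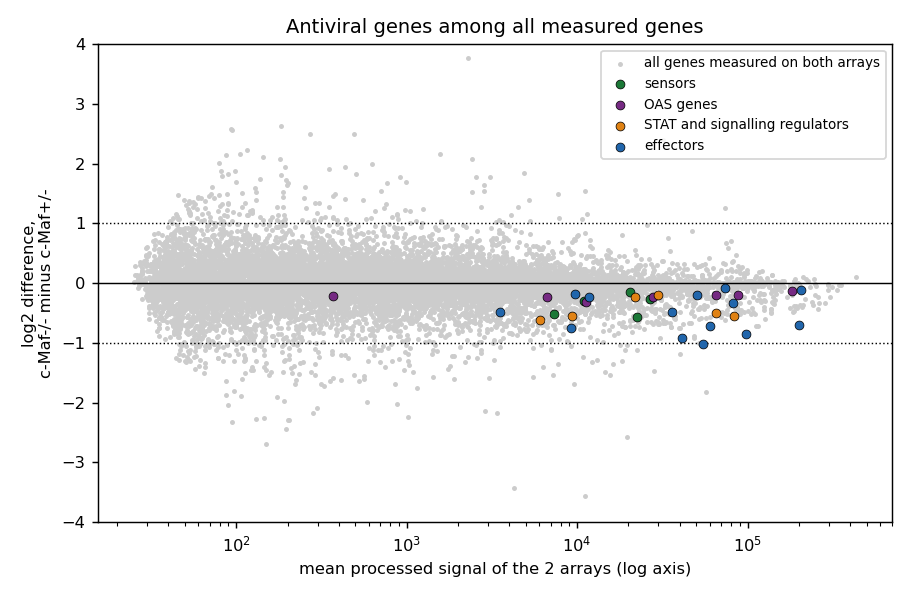
Log2 difference (vertical axis) against mean processed signal of the 2 arrays (log axis) for 12406 genes in grey and the 32 antiviral genes in colour by class, with 1 array per genotype. Dotted lines mark 2-fold. The antiviral genes are mostly bright, and they lie below 0 at all signals.

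Among the cytosolic sensors, Ifih1 and Eif2ak2 had larger differences than Ddx58, Dhx58 and Zbp1. Ifih1 encodes MDA5, which detects long viral RNA. Its brighter probe (chromosome 2, 62435507 to 62435566, mm9) read 51604 in c-Maf+/- and 36421 in c-Maf-/-, and its other probe read 774 and 513. The gene's log2 difference was -0.57 (SD 0.06 over 2 probes), or 32.8% less signal. Eif2ak2 encodes PKR, the RNA-activated kinase that stops translation, and read 8568 and 6106 (log2 difference -0.51). The dimmer array was c-Maf-/- at every probe of both genes.

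Ddx58 encodes RIG-I, the sensor of viral RNA ends, and its brighter probe read 57327 in c-Maf+/- and 48712 in c-Maf-/-. Its 2 probes gave a log2 difference of -0.27 (SD 0.02). Dhx58 encodes LGP2, a helicase that assists MDA5, and read 11927 and 9891 (-0.30). Zbp1 encodes a sensor of Z-form nucleic acid that can start cell death, and one of its 2 probes read 31583 and 29192. Its log2 difference was the smallest among the 5 measured sensors at -0.14, which both of its probes gave. The sensor median was -0.30.

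Ifi205, a member of the PYHIN family of DNA-binding proteins, was not measured by a probe of its own. A probe named Mnda, which was assigned to the related gene Ifi211 through RefSeq, also lists a transcript of Ifi205. That probe (chromosome 1, 175826600 to 175826659, mm9) read 114828 in c-Maf+/- and 99004 in c-Maf-/-, a log2 difference of -0.24. Since this probe was assigned to Ifi211 and may read more than 1 gene of the family, its value is not one of Ifi205 alone. It was not counted among the members.

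The oligoadenylate synthetase (OAS) genes had the median closest to 0 and the narrowest range of the 4 classes, though single effectors (Bst2 and Isg15) lay closer to 0 than any OAS gene. With only genes of at least 2 probes, the OAS median was -0.26 over 2 genes and that of the effectors, -0.24 over 7, was closer to 0. OAS enzymes bind viral RNA and make a short messenger oligonucleotide from ATP. All 7 genes had a log2 difference between -0.32 and -0.13, with a median of -0.21 (13.6% less signal). The median was -0.075 with spike-in scaling, under which Oasl1 alone of the 7 lay above 0. None reached -0.5.

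Oas1a read 153706 in c-Maf+/- and 136106 in c-Maf-/- at one probe and 32890 and 29080 at the other. These 2 probes gave nearly the same log2 difference, -0.20 each. Oas2 read 30039 and 26051 (-0.23), and Oas3, which has extra OAS domains, read 7119 and 6183 (-0.23). The enzymatically inactive relative Oasl1, known as a brake on Irf7 translation, read 188604 and 175483 (-0.13), and Oasl2 read 68873 and 60844 (-0.20). The c-Maf-/- array was the lower one at each of these probes.

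Oas1b and Oas1g were less well resolved. Oas1b, a transcribed pseudogene in the RefSeq table, had 3 probes. They read 2179 in c-Maf+/- and 1575 in c-Maf-/- (-0.49), 12862 and 10334 (-0.34), and 21286 and 19680 (-0.14), so its mean of -0.32 (SD 0.18) depends on the probe. Oas1g rested on 1 dim probe (395 in c-Maf+/- and 347 in c-Maf-/-, -0.21), while its second probe was not well above background on either array. That usable Oas1g probe also lists an Oas1a accession, and the brighter Oas1a probe lists one of Oas1g, so no usable probe measured Oas1g apart from Oas1a. The dimmer Oas1a probe lists no accession of another gene, and it gave -0.20 as well. Their printed upstream stretches are identical over the first 43 bases, which is all of the Oas1g stretch. With dim probes kept, Oas1g was at 0.06.

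Stat2 differed less than the regulators that act beside it. Stat2 encodes a signalling factor of the interferon receptors, and it read 31484 in c-Maf+/- and 27777 in c-Maf-/-, a log2 difference of -0.21 (13.3% less signal). Ifi35, an interferon-induced binding partner of NMI, was close to it, with 23330 and 20124 (-0.24).

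Usp18, which removes ISG15 from proteins and blocks the interferon receptor, read 97601 in c-Maf+/- and 67943 in c-Maf-/- (-0.55). Parp9 and Dtx3l form a complex of an ADP-ribosyltransferase and a ubiquitin ligase that promotes interferon signalling. Parp9 read 21653 and 15363 at its brighter probe and 121 and 81.5 at the other, with a log2 difference of -0.56 (SD 0.05). Dtx3l had 3 probes between -0.73 and -0.49 and a mean of -0.62 (SD 0.12). Parp14, a relative that also modifies STAT signalling, read 75992 and 54819 (-0.50). The class median was -0.52, and Stat2 and Ifi35 stood apart from the other 4 genes, whose values ran from -0.62 to -0.50.

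The effectors covered the widest range, from Ifit2 (-1.02) to Bst2 (-0.08), with a median of -0.48. With only the 7 effectors that had at least 2 probes the median was -0.24. The IFIT proteins bind viral RNA ends and block its translation. Ifit2 read 72739 in c-Maf+/- and 36620 in c-Maf-/- (chromosome 19, 34650244 to 34650303, mm9), a 2.02-fold lower signal. Ifit1 read 53223 and 28718 (1.89-fold lower), and Ifit3 read 74115 and 45678 (1.65-fold lower). Each IFIT gene rested on 1 probe. Under spike-in, median, quantile or loess scaling Ifit2 lay within 2-fold, at -0.88 with spike-in scaling.

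Rsad2, Cmpk2 and Ifi44 lay in the same range as the IFIT genes or just above it, between -0.85 and -0.71. Rsad2 encodes viperin, which makes a chain-terminating nucleotide, and read 245666 in c-Maf+/- and 153102 in c-Maf-/- (-0.71). Cmpk2, a nucleotide kinase that supplies viperin's substrate, read 134619 and 76891 at one probe and 116008 and 65088 at the other. Its log2 difference was -0.85 (SD 0.02 over 2 probes), or 44.4% less signal. Ifi44, a microtubule-associated antiviral protein gene, read 11445 and 6949 (-0.75). These 3 genes and the 3 IFIT genes were the 6 lowest of all 32 members, and the next was Dtx3l.

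The ISG15 pathway could be read step by step. ISG15 is a ubiquitin-like protein attached to others by UBA7, UBE2L6 and, in mice, the ligase HERC6, and removed by USP18. Isg15 had one probe at 366796 in c-Maf+/- and 366529 in c-Maf-/- (-0.03) and another at 46014 and 40762 (-0.20), with a mean of -0.11. The enzymes Uba7 (30507 and 27618, -0.17) and Ube2l6 (-0.21 over 2 probes) were close to it. Herc6 was lower at -0.49, with probes at -0.63 and -0.34, and Usp18 was at -0.55. Herc6 and Usp18 thus lay below the other 3 genes, although the SD between the probes of Herc6 was 0.21. Isg15, Uba7 and Ube2l6 have no clear order, since the Isg15 probes had an SD of 0.12 and those of Ube2l6 one of 0.09.

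The other effectors were spread over the class. Samhd1, which depletes nucleotides that viruses need, had a mean of -0.48 over 3 probes. Both of its brighter probes gave -0.36 (85256 and 67710 at one, 35374 and 28083 at the other), and its remaining, dim probe gave -0.72 (509 and 314). Rtp4, an interferon-induced chaperone gene, read 90941 and 73073 (-0.34). Xaf1, a pro-apoptotic gene, had probes at -0.40 (26249 and 20244) and -0.07 (98.6 and 95.4), so its mean of -0.24 rests on unequal probes.

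The remaining effectors differed little. Isg20, an exonuclease that degrades viral RNA, read 75549 in c-Maf+/- and 65999 in c-Maf-/- at one probe and 31478 and 28265 at the other (-0.20, SD 0.03). Adar, which edits adenosines in RNA and limits sensing of the cell's own RNA, read 14153 and 13077 at one probe and 6307 and 5476 at the other (-0.18, SD 0.06). Bst2 encodes tetherin, which holds budding virions at the cell surface, and read 74880 and 72354 (-0.08). Bst2 had the smallest difference of all members.

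**Figure D3:**
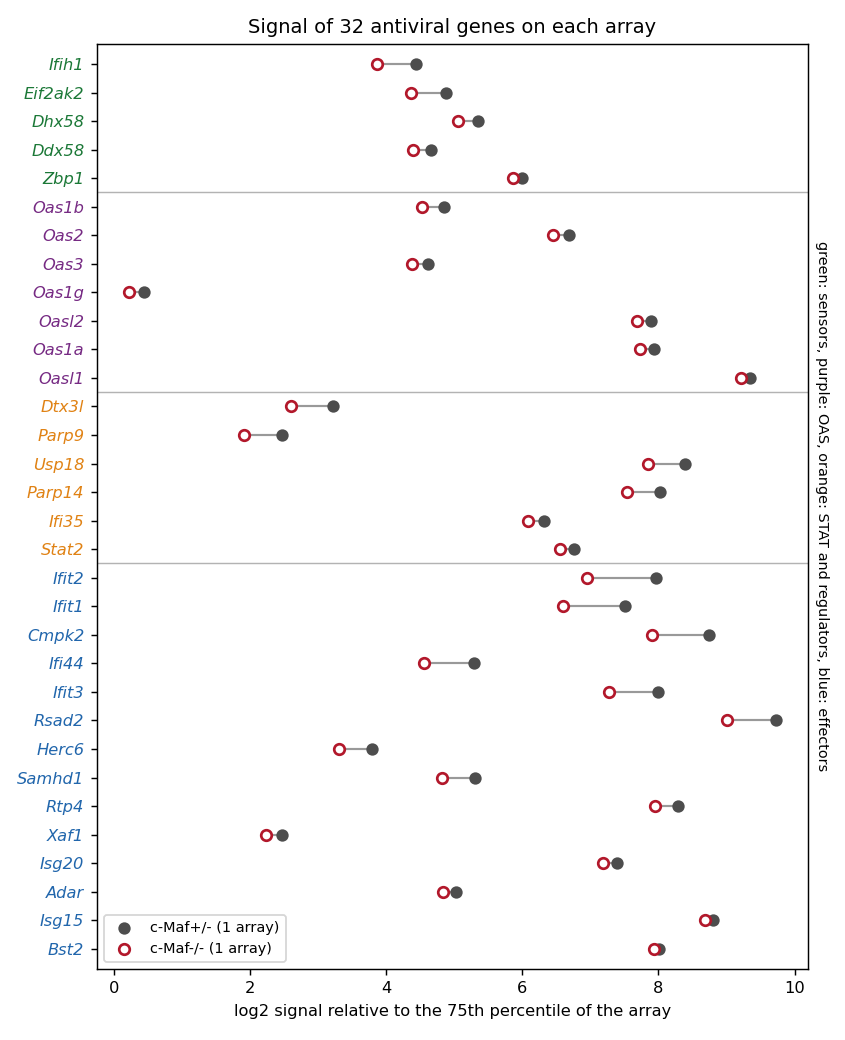
Log2 signal relative to each array's 75th percentile for 32 antiviral genes, on the c-Maf+/- array (filled) and the c-Maf-/- array (open), with 1 array per genotype and gene names coloured by class. The open point lies left of the filled one for all 32 genes, and the gaps are widest for Ifit2, Ifit1 and Cmpk2. Levels of different genes come from different probes and are not comparable.

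Between the classes, the OAS genes (-0.32 to -0.13) overlapped the sensors (-0.57 to -0.14), the regulators (-0.62 to -0.21) and the effectors. The classes thus differed in their medians but shared values, and no test was possible. The Pearson correlation of the log2 difference with the mean log2 level over the 32 members was -0.06 and the Spearman correlation 0.11, a description over genes that share both arrays. The 16 dimmer members had a median of -0.28 and the 16 brighter ones -0.41.

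Members that neighbour each other on a chromosome are set side by side here, and they were not compared with members that lie apart. Probes of 1 gene can differ more than some of these neighbours did, as those of Oas1b ran from -0.49 to -0.14. On chromosome 19, the probes of Ifit1, Ifit2 and Ifit3 lie within 73.6 kb (mm9), and their log2 differences ran from -1.02 to -0.72. Rsad2 and Cmpk2 lie within 36.3 kb on chromosome 12 and differed by 0.14 in log2 difference. Parp9, Dtx3l and Parp14, within 140 kb on chromosome 16, spanned 0.13. The 5 genes Oas1a, Oas1b, Oas1g, Oas2 and Oas3, within 168 kb on chromosome 5, spanned 0.12, and the pair Oasl1 and Oasl2, elsewhere on chromosome 5, spanned 0.07. Neighbours here are also paralogs in the IFIT and OAS families. Apart from the shared Oas1a and Oas1g probes, no probe of these families listed an accession of another gene.

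The ISRE letters were found in the windows of 13 of 25 members (52%), against 3.99% of the 27025 genes with such a window. The 12 measured members with a match had a median log2 difference of -0.25 (-0.92 to -0.08) and the 12 without one had -0.36 (-1.02 to -0.13), so the ranges overlap nearly in full. Ifit1 and Ifit3 each held 2 matches upstream of the start and Isg15 held 3 overlapping ones, yet Isg15 differed by -0.11 and Ifit1 by -0.92. Ifit2 and Cmpk2, both among the 3 lowest members, had no exact match, and neither had Ifi44 (-0.75). The gamma-activated site TTCNNNGAA was in 8 of 25 members (32%, against 9.55% of genes). The NF-kB letters, GGG, any 5 bases and CC, were in 16 of 25 (64%, against 53.5%). The letters TGCTGA, a core of the Maf recognition element, was in 4 of 25 (16%, against 21.7%), namely Ifit1, Ifit2, Oas3 and Ifi205. Matches are descriptions of letters and not of binding.

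The other interferon pathway genes, of which 52 of 54 were measured, had a median of -0.29, beside -0.31 for the members. Of these, 44 had a value below 0 and 8 above, where 53.7% of all genes and 65.5% of bright genes were below 0. None was past 2-fold, beside 1.73% of all genes at least 2-fold lower and 1.43% at least 2-fold higher. Lowest were the ubiquitin ligase gene Trim21 (17120 in c-Maf+/- and 8981 in c-Maf-/-, -0.96), Ifnb1, the GTPase gene Mx2 (20992 and 11743, -0.86) and the DNA sensor gene Aim2 (483 and 287, -0.77). Ifnb1, which encodes interferon beta, the ligand that starts the loop, read 317 and 166 (-0.95). Farthest on the other side were Mavs (1285 and 2012, 0.62), the adaptor of RIG-I and MDA5, Slfn1 (502 and 778, 0.61), Traf3 (0.38) and Irf3 (0.16). Over the sensing genes and their adaptors in this list, 11 of 14 were below 0, beside the same 53.7% and 65.5%. Their median was -0.33. Among them were Sting1 (4756 and 2947, -0.72), the adaptor of cytosolic DNA sensing, and Tlr3 (1042 and 651, -0.70), a receptor for double-stranded RNA, and the kinase genes Tbk1 (-0.26) and Ikbke (-0.09).

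The receptor genes differed little, with Ifnar1 at 0.10 (SD 0.16 over 3 probes) and Ifnar2 at -0.03 (9313 in c-Maf+/- and 9257 in c-Maf-/-). Irf9, which encodes the DNA-binding partner of STAT2, was at -0.26 (10414 and 8858). Irf7, an amplifier of interferon production, was at -0.23 (24695 and 21400). Of the STAT genes analysed, 4 of 6 were below 0, near the 53.7% of all genes and 65.5% of bright genes, with Stat5a at -0.62, Stat5b at -0.50 and Stat3 at -0.37. Stat4 (0.28) and Stat6 (0.37 over 3 probes) were above 0. Stat2 had the smallest difference of these 6, and their median was -0.29.

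**Figure D4:**
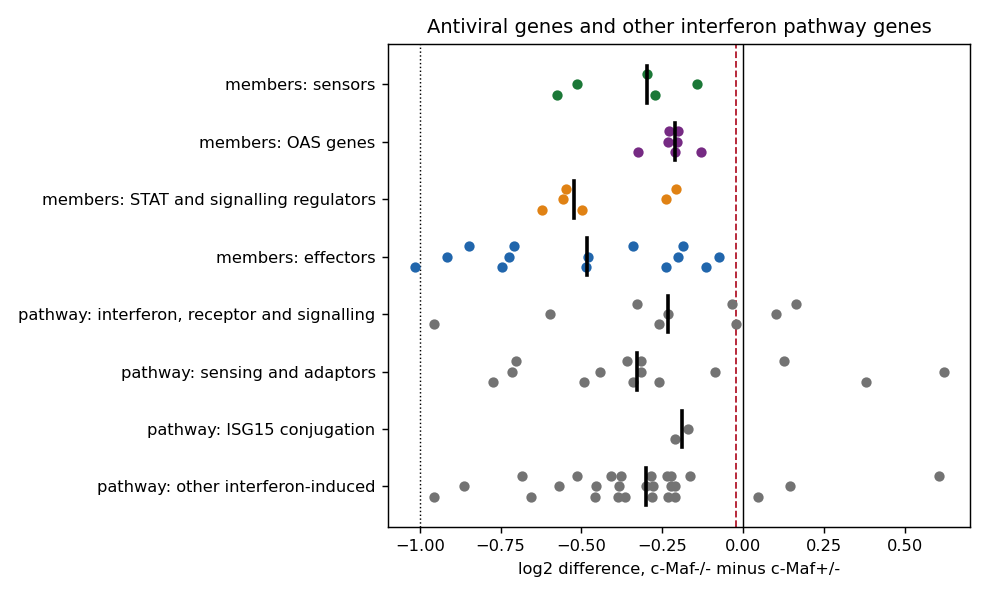
Log2 difference, c-Maf-/- minus c-Maf+/-, of the antiviral genes by class (coloured) and of the other interferon pathway genes by role (grey), 1 point per gene and 1 array per genotype. Black bars are medians, the dotted line marks 2-fold lower and the dashed line the median of all genes. With scaling on the 75th percentile, points above 0 occur only in the grey groups, led by Mavs (0.62) and Slfn1 (0.61).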

How the data were processed

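Labelling used Cy3 and 50 ng of total RNA a sample, per the labels' protocols. The deposited values are spot intensities from Agilent Feature Extraction 10.7.3.1 (protocol GE1_107_Sep09, design 028005), per the file headers. The software had subtracted background and detrended each array, per the file headers. Other deposited columns used were mean and background intensities and the 0 or 1 flags.

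From log2 of each processed signal, the log2 of its array's 75th percentile was subtracted (signals of 291 and 296). Outlier spots (136 and 149) were dropped, and probes well above background on both arrays were averaged per gene. Probes were named by symbol for the members and otherwise through RefSeq, and 23867 of 55681 probes without a match were left out. Pathway genes past 2-fold, the 4 farthest from 0 on each side, Ifnb1, Ifnar1, Ifnar2, Irf9 and Irf7 were named. Outside that rule, Sting1, Tlr3, Tbk1, Ikbke, Uba7 and Ube2l6 were also named. These all had values below 0, while 8 of the 52 measured pathway genes lay above 0. A few genes of the lists are not reported here. Members, classes and lists were chosen with earlier results of these data known. The design gives no test, and the number of arrays limits the precision. The calculation was tested on simulated data. Alternatives were 11, with normexp from limma 3.58.1. Exon positions of the probes (build mm9) were not analysed here.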

Additional observations from a re-analysis of the deposited data

How the results depend on the processing

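No paired analysis was possible because each genotype had 1 array. All 32 members were below 0 under the scalings other than spike-ins, which left 29, and without the filter on dim probes, which left 31. With genes of at least 2 probes, 14 members were measured and all 14 were below 0. Ifit2 was the 1 member past 2-fold in 6 alternatives, and 0 members were past it with spike-in, median, quantile or loess scaling or with genes of at least 2 probes. Spike-in scaling gave medians of -0.17 for the members, -0.16 for sensors, -0.075 for OAS genes, -0.39 for STAT and signalling regulators, -0.35 for effectors, -0.16 for pathway genes and -0.15 for STAT genes. With genes of at least 2 probes the effector median was -0.24 and the OAS median -0.26, over fewer genes. The 215 genes at least 2-fold lower and 177 at least 2-fold higher were 141 and 262 with spike-in scaling. The 215 became 109 with normexp, 124 without background subtraction, 871 without the filter on dim probes, 128 with a signal of at least 100 and 32 with at least 2 probes. Of 334 single-member values, 46 moved by more than the 0.09 spread between probes. Of these, 32 were all the members under spike-in scaling, which shifts every gene by the same 0.14, and 14 were spread over the other alternatives. Among those 14, Dtx3l, Herc6, Oas1b, Samhd1 and Xaf1 moved when only the brightest probe was used. Ifi35, Oas1a, Oasl1, Rsad2 and Stat2 moved under quantile normalization. Xaf1 also moved with a signal of at least 100, Oas1g without the filter on dim probes, and Parp9 with normexp or without background subtraction. The cause beyond the change of setting was not tested. Low signals limit the dim probes of Oas1g, Parp9 and Xaf1.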

Other observations

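Genes of the PYHIN family, which are interferon-induced, encoded side by side on chromosome 1 and related to Ifi205, did not all differ alike. Their choice was made after their values were seen. Ifi204 was at -0.32 at 2 probes, Ifi203 at -0.44 over 4 probes, Mndal at -0.34 and Aim2 at -0.77. Pyhin1 had 3 probes between -0.40 and -0.28, and Pydc4 had 2 at -0.38 and -0.31. Pydc3 had 3 probes higher in c-Maf-/-, at 0.12, 0.30 and 0.37, the last from a signal of 1385 to 1821. A further Pydc3 probe, near 175607824 on chromosome 1 (mm9), was lower, from 7306 to 5372 (-0.47). Whether it and the other 3 read the same transcript was not tested. Probes of this family may read close relatives.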
